A study of Arabidopsis thaliana with 3 samples.

Results

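Seedlings that overexpress DRB3 were compared with seedlings that overexpress DRB2, 2 of the 3 arrays of a study of Arabidopsis thaliana, the thale cress. Each overexpressor and the wild type, which is shown for context, was measured as whole seedlings at 2 weeks of age on 1 ATH1 array, where a probe set of short DNA oligomers reports each transcript. The DRB3 overexpressor and the DRB2 overexpressor are transgenic plants named only by the gene they overexpress; the labels give no promoter, no line and no number of plants pooled, and all seedlings were grown at 22 °C in 16 h of light and 8 h of dark. The series' design text describes a different experiment, so groups follow the genotype given for each array. The comparison holds the 13513 probe sets, of 22810 on the array, that the platform's gene table ties to exactly 1 gene, and they stand for 13355 genes. Of these probe sets, 1798 carry a gene name and 11715 only a locus code as their symbol. A role is given for a locus code only where the RefSeq gene table lists a gene name as its synonym. Gene lists below were matched mainly by name, so the genes counted as measured can leave out family members known by a locus code alone.

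DRB proteins of plants carry double-stranded RNA binding domains. The best known member of the family, DRB1 or HYL1, helps a Dicer enzyme to cut microRNA precursors. DRB2 and DRB3 are family members also linked to small RNA and antiviral pathways. The comparison asks how transcript levels differ between plants that overexpress related members of this family. The probe sets of DRB2 and DRB3 are not among those with 1 named gene, so the levels of the overexpressed genes were not analysed here and the labels are unchecked.

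Values are MAS5 intensities, a linear signal per probe set, and every array had been scaled to the same trimmed mean of 500.05. Weak signals were raised to a common floor of 109, and the log2 ratio of the DRB3 over the DRB2 overexpressor was then computed. "Rose" and "fell" below mean at least 2-fold higher or lower in the DRB3 overexpressor than in the DRB2 overexpressor on these floored values, and "at least" marks a fold for which 1 of the 2 values lay under the floor. With 1 array per genotype there is no replicate, no error and no test, and precision is limited by having only these arrays. In all, 7009 probe sets were above the floor on both overexpressor arrays, 653 on 1 of them and 5851 on neither.

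Of the 13513 probe sets, 77 rose (0.57%) and 82 fell (0.607%), 159 in all (1.18%). Of the 7662 above the floor on at least 1 overexpressor array these were 1% and 1.07%. Counts of list members that rose or fell, given below, are to be read beside these shares, and no list was tested against them. Neither overexpressor value was under the floor for 67 of those that rose and for 73 of those that fell. The 77 that rose had a median intensity of 510 in the DRB3 overexpressor, 205 in the DRB2 overexpressor and 177 in wild type. The 82 that fell had a median of 190 in the DRB3 overexpressor, 464 in the DRB2 overexpressor and 473 in wild type. Of the 159, 78 had a mean over the overexpressor arrays between 217 and 435 intensity units, where 3.71% of 2103 probe sets passed 2-fold. The share was 1.41% from 109 to 217, where the floor limits the ratios. It was 1.52% from 435 to 869, 2.15% from 869 to 1739, 0.858% from 1739 to 3478 and 1.52% of the 329 above 3478. Among the 7662 probe sets above the floor on at least 1 overexpressor array the log2 ratio had a median of -0.02, and its interquartile range ran from -0.25 to 0.22. It was above 0 for 3662 of them and below 0 for 4000. For 39 genes read by 2 probe sets above the floor, the log2 ratios of the 2 probe sets differed by a median of 0.21 and for the most discordant gene by 0.86. Just inside the 2-fold threshold lay AT1G78210 at 2.00-fold higher and AT5G19120 at 2.00-fold lower, and just outside it APG8A at 1.99-fold higher and AT4G33660, with 804 in the DRB3 overexpressor and 1608 in the DRB2 overexpressor.

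**Figure D1:**
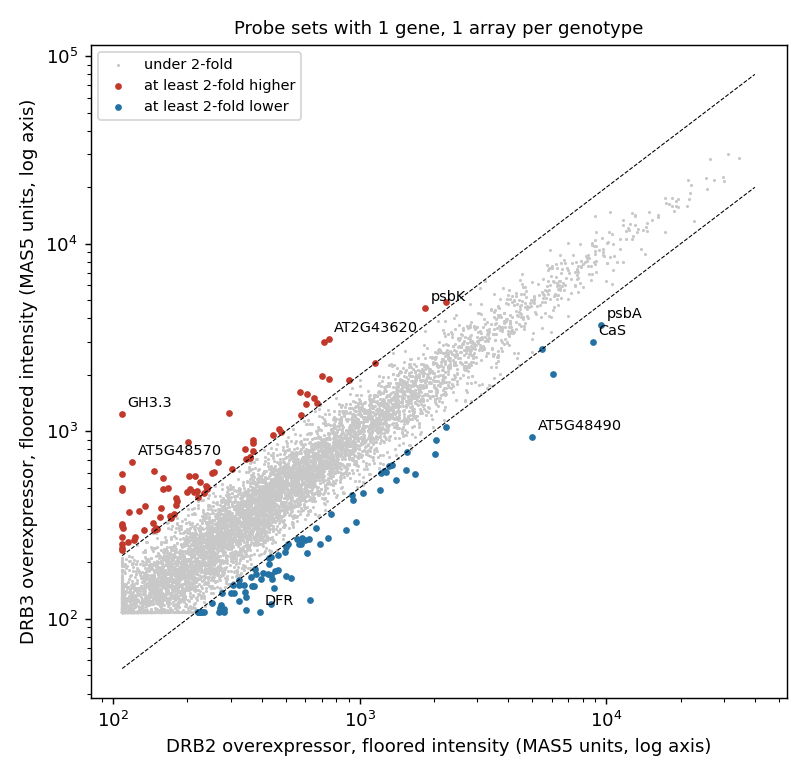
Floored intensity of each of the 13513 probe sets on the DRB3 overexpressor array (y axis) and the DRB2 overexpressor array (x axis), both log axes in MAS5 units; dashed lines mark 2-fold. The 77 red points above the upper line rose and the 82 blue points below the lower line fell, while most probe sets lie between the lines.

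Known technical controls also differed between these arrays. The poly(A) spike-in controls, bacterial RNAs of known amount added to the sample, were higher on the DRB3 overexpressor array in 24 of 24 probe sets, by a median of 4.02-fold, while the hybridisation controls differed by a median of 1.11-fold. The probe set for 25S ribosomal RNA had an intensity of 11338.5 in the DRB3 overexpressor, 3603 in the DRB2 overexpressor and 12982 in wild type. The ratio of 3' to 5' signal, which grows as RNA or its copies are shortened, was for GAPDH 3.89 in the DRB3 overexpressor, 5.77 in the DRB2 overexpressor and 9.31 in wild type. For Actin it was 5.01 in the DRB3 overexpressor, 6.45 in the DRB2 overexpressor and 13.0 in wild type. Of the organ markers, 2 of 10 root genes are named here, and their summed intensity was 597 in the DRB3 overexpressor, 374 in the DRB2 overexpressor and 236 in wild type. The 1 named leaf marker of 5, RCA (rubisco activase), had 21690 in the DRB3 overexpressor, 29895 in the DRB2 overexpressor and 33718 in wild type. The 2 named guard cell markers of 5 summed to 2479 in the DRB3 overexpressor, 2649 in the DRB2 overexpressor and 2567 in wild type. None of the 7 seed and 5 floral markers is named here. Whether any of these differences has a part in the gene results was not tested, and in whole seedlings fewer cells of a type and less RNA per cell cannot be told apart.

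The widest gap between the overexpressors was in an auxin gene. Auxin is the plant hormone of cell expansion and patterning; GH3 enzymes join it to amino acids and are themselves switched on by it. GH3.3 read 1235 in the DRB3 overexpressor, 99.1 in the DRB2 overexpressor and 68.1 in wild type, at least 11.4-fold higher. IAA29, which encodes a repressor of the auxin response that is induced by auxin and shade, read 258 in the DRB3 overexpressor, 115 in the DRB2 overexpressor and 76.1 in wild type, 2.24-fold higher. These were the 2 that rose among 16 measured genes of auxin response and synthesis, of which 6 were above the floor on an overexpressor array, and none fell. The other GH3 genes above the floor read close to alike on the overexpressor arrays. WES1, also a GH3 gene, read 540 in the DRB3 overexpressor and 555 in the DRB2 overexpressor, both above the 272 of wild type. GH3.17 read 462 in the DRB3 overexpressor, 500 in the DRB2 overexpressor and 519 in wild type. The list's median log2 ratio over the 6 was 0.11, -0.02 with the floor at percentile 60, and -0.04 over the 5 genes above the floor on both overexpressor arrays, which leaves out GH3.3.

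Among genes with a name or a listed synonym, a pair of protein folding genes rose. AT5G48570, known as ROF2 or FKBP65, an immunophilin that works with heat stress factors and HSP90, read 687 in the DRB3 overexpressor, 119 in the DRB2 overexpressor and 131 in wild type, 5.76-fold higher. Hop3, a cochaperone that links HSP70 with HSP90, read 322 in the DRB3 overexpressor, 80.5 in the DRB2 overexpressor and 103 in wild type, at least 2.97-fold higher. In both genes the DRB2 overexpressor and wild type were close to each other and the DRB3 overexpressor stood apart. Hop3 lies outside the list of heat shock proteins and cochaperones as matched by name. That list holds only genes found by name or synonym, so members known to the tables by a locus code alone are not counted. Of its 6 measured members, ROF2 alone rose and none fell. BOB1, a small chaperone, read 788 in the DRB3 overexpressor and 594 in the DRB2 overexpressor, and HSA32 lay close to the floor with 110 in the DRB3 overexpressor and 111 in the DRB2 overexpressor. The other 3 lay under it on both arrays. The 3 measured folding genes of the endoplasmic reticulum, PDIL5-1, ATERDJ3B and CRT1b, had log2 ratios of 0.12, 0.23 and 0.31.

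Other named genes that rose included a cytochrome P450, a glutathione S-transferase and an osmotin. CYP71B23, a cytochrome P450, read 684 in the DRB3 overexpressor, 266 in the DRB2 overexpressor and 120 in wild type, 2.57-fold higher. Its relative CYP71B35 went the other way, with 96.0 in the DRB3 overexpressor, 282 in the DRB2 overexpressor and 215 in wild type, at least 2.60-fold lower. These were the only 2 past 2-fold of the 24 measured P450 genes matched by name or synonym. Of the 24, 12 were above the floor, and their median log2 ratio was 0.06. It was 0.21 over the 9 above the floor on both overexpressor arrays. GSTU25, a glutathione S-transferase of the tau class, whose members attach glutathione to foreign compounds, read 249 in the DRB3 overexpressor, 87.6 in the DRB2 overexpressor and 90.3 in wild type, at least 2.29-fold higher. It was the 1 that rose among 14 measured glutathione S-transferase genes. GSTU22 read 197 in the DRB3 overexpressor and 119 in the DRB2 overexpressor, while GSTU28 read 127 in the DRB3 overexpressor and 195 in the DRB2 overexpressor, so the family was mixed in direction. OSM34, an osmotin of the thaumatin-like defence proteins, read 4900 in the DRB3 overexpressor, 2236 in the DRB2 overexpressor and 2132 in wild type, 2.19-fold higher. The other 3 measured genes of the chitinase, glucanase and pathogenesis-related list, CHI, ChiC and PR-1-LIKE, had log2 ratios of -0.73, -0.16 and 0.25. This list was matched by name and can miss genes of these classes known by a locus code alone.

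Class III peroxidases, secreted enzymes that act on the cell wall and on reactive oxygen, rose in part. AT5G66390 (PRX72), linked to lignin formation, read 807 in the DRB3 overexpressor, 341 in the DRB2 overexpressor and 149 in wild type, 2.37-fold higher. AT5G64120 (PRX71) read 1028 in the DRB3 overexpressor, 471 in the DRB2 overexpressor and 162 in wild type, 2.18-fold higher. Prx37 read 1022 in the DRB3 overexpressor, 538 in the DRB2 overexpressor and 231 in wild type, a log2 ratio of 0.93. In these 3 genes the arrays kept the order DRB3 overexpressor, DRB2 overexpressor, wild type. PRXR1 did not follow it, with 16887 in the DRB3 overexpressor, 19213 in the DRB2 overexpressor and 19114 in wild type, and AT2G41480 lay close to the floor throughout. Of the 7 measured peroxidases matched by name or synonym 2 rose, none fell and 2 lay under the floor on both overexpressor arrays. The median log2 ratio of the other 5 was 0.93, and peroxidases known by a locus code alone can be missing from this count. Of the root markers, EXPA18 read 439 in the DRB3 overexpressor, 278 in the DRB2 overexpressor and 184 in wild type. EXPA7 read 158 in the DRB3 overexpressor, and both the 95.1 in the DRB2 overexpressor and the 52.1 in wild type were under the floor. The part of root share in the peroxidase values was not tested.

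Defensins, small secreted antifungal peptides, showed a smaller gap. PDF1.2, the usual marker of jasmonate and ethylene defence, read 5806 in the DRB3 overexpressor, 3058 in the DRB2 overexpressor and 623 in wild type, a log2 ratio of 0.93 between the overexpressors. PDF1.2b read 7422 in the DRB3 overexpressor, 5824 in the DRB2 overexpressor and 999 in wild type, a log2 ratio of 0.35, on a probe set of the class whose probes can bind other transcripts. Of 15 measured defensin and thionin genes none passed 2-fold, and among the 8 above the floor 4 had a ratio above 0 and 4 below. Both overexpressors therefore stood far above wild type in PDF1.2 and PDF1.2b and much nearer to each other.

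Genes of cold response and of starch also held single rises. COR15B, a cold-induced protein that protects chloroplast membranes, read 957 in the DRB3 overexpressor, 444 in the DRB2 overexpressor and 616 in wild type, 2.16-fold higher. Its close relative COR15A read 455 in the DRB3 overexpressor, 588 in the DRB2 overexpressor and 1211 in wild type, a log2 ratio of -0.37, so this pair ran in opposite directions. COR15B was the 1 that rose among 13 measured genes of cold, drought and abscisic acid response. COR47, a dehydrin, had a log2 ratio of 0.52, and the median of the 9 above the floor was 0.20. QQS, a gene found only in Arabidopsis whose level affects starch, read 504 in the DRB3 overexpressor, 239 in the DRB2 overexpressor and 351 in wild type, 2.11-fold higher. UGT71C1, a glycosyltransferase, read 303 in the DRB3 overexpressor, 150 in the DRB2 overexpressor and 195 in wild type, 2.02-fold higher. It was the 1 that rose among the 51 measured UDP-glycosyltransferase genes matched by name or synonym, and none of these 51 fell. Members known by a locus code alone can be missing from that count. Over all 13513 probe sets 0.57% rose and 0.607% fell.

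Most of the largest rises are known in the tables only by a locus code. AT1G43910 read 880 in the DRB3 overexpressor, 202 in the DRB2 overexpressor and 186 in wild type, 4.36-fold higher. AT5G12110 read 1258 in the DRB3 overexpressor, 295 in the DRB2 overexpressor and 594 in wild type, so that the DRB2 overexpressor was the low array. AT2G43620 read 3087 in the DRB3 overexpressor, 748 in the DRB2 overexpressor and 116 in wild type, and AT4G12490 read 2998 in the DRB3 overexpressor, 717 in the DRB2 overexpressor and 89.6 in wild type. In these last genes both overexpressors exceeded wild type and the DRB3 overexpressor read about 4-fold more than the DRB2 overexpressor, 4.13-fold and 4.18-fold. AT4G12500 kept the same order with 611 in the DRB3 overexpressor, 146 in the DRB2 overexpressor and 60.5 in wild type. Its floored log2 ratio of the DRB2 overexpressor over wild type was 0.42, against 2.69 for AT2G43620 and 2.72 for AT4G12490. Wild type was under the floor for AT4G12490 and AT4G12500. A different pattern was seen for AT3G04000, which read 498 in the DRB3 overexpressor, 166 in the DRB2 overexpressor and 557 in wild type, and for AT3G50900, with 577 in the DRB3 overexpressor, 203 in the DRB2 overexpressor and 492 in wild type. There the DRB2 overexpressor was again the low array and the DRB3 overexpressor was near wild type. The other unnamed genes among the 20 largest rises above the floor were AT5G02540, AT4G22530, AT5G17760, AT1G20070, AT2G20560, AT4G20830, AT2G19310, AT4G01410, AT2G41730, whose probes are of the class that can bind other transcripts, AT4G39675 and AT1G65500. Their rises lay between 2.53-fold and 3.54-fold. Among rises from under the floor, AT5G57760 was at least 5.44-fold higher, AT4G19430 at least 4.58-fold, AT5G51440 at least 4.49-fold and AT2G29500 at least 2.87-fold. AT3G49960 read 272 in the DRB3 overexpressor, 98.2 in the DRB2 overexpressor and 85.7 in wild type.

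**Figure D2:**
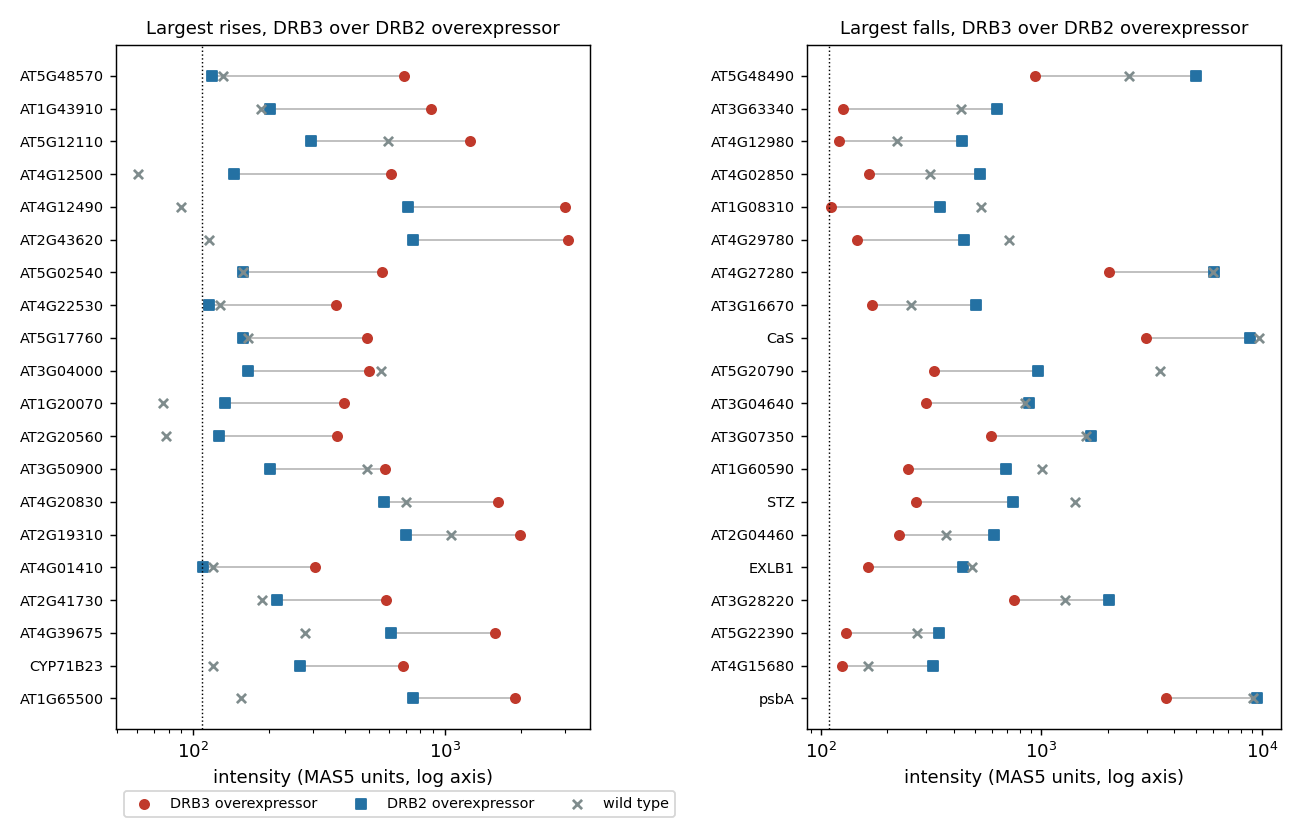
Intensity (log axis, MAS5 units) of the 20 largest rises (left) and the 20 largest falls (right) with both overexpressor values above the floor, 1 array per genotype; circles are the DRB3 overexpressor, squares the DRB2 overexpressor and crosses wild type, and the dotted line is the floor of 109. The cross of wild type lies near the square of the DRB2 overexpressor for AT5G48570 and CaS, and far below it for AT2G43620 and AT4G12490.

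Among the falls, the synthesis of flavonoids and anthocyanins, the red and blue pigments of stressed seedlings, held the steepest one from above to under the floor. DFR, for dihydroflavonol reductase of the anthocyanin branch, read 67.8 in the DRB3 overexpressor, 392.3 in the DRB2 overexpressor and 377 in wild type, at least 3.61-fold lower. No other member of the list passed 2-fold on floored values. UF3GT, an anthocyanin glycosyltransferase, read 6.82 in the DRB3 overexpressor, 178 in the DRB2 overexpressor and 153 in wild type. AT4G14090, on the list by its locus code and without a gene name in the tables, read 42.2 in the DRB3 overexpressor, 139 in the DRB2 overexpressor and 212 in wild type, and UGT78D2, which puts glucose on flavonoids, read 477 in the DRB3 overexpressor, 614 in the DRB2 overexpressor and 880 in wild type. Of the 6 measured genes of the list 1 fell and none rose. DFR, UF3GT and AT4G14090 were above the floor in the DRB2 overexpressor and not in the DRB3 overexpressor, which fixes the direction of their floored ratios, and UGT78D2 was the 1 gene above it on both arrays. CHIL, a chalcone isomerase-like protein that promotes flavonoid synthesis, is outside the list and was named after its value was seen; it read 266 in the DRB3 overexpressor, 555 in the DRB2 overexpressor and 705 in wild type, 2.09-fold lower.

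Among the named falls were genes with chloroplast and stomatal roles. CaS, a thylakoid membrane protein of calcium signalling and stomatal closure, read 2979 in the DRB3 overexpressor, 8805 in the DRB2 overexpressor and 9691 in wild type, 2.96-fold lower. STOMAGEN, a peptide that raises stomatal density, read 663 in the DRB3 overexpressor, 1352 in the DRB2 overexpressor and 1731 in wild type, 2.04-fold lower. In both genes the DRB2 overexpressor was nearer to wild type than to the DRB3 overexpressor. The gene next to STOMAGEN in the RefSeq gene order, AT4G12980, also fell, with 120 in the DRB3 overexpressor, 437 in the DRB2 overexpressor and 222 in wild type. This was the 1 pair of directly adjacent protein-coding genes that both passed 2-fold, among 156 genes past 2-fold placed in that order. Genes close by but not counted as adjacent included AT4G12490 and AT4G12500, which both rose, and AT4G27652 and AT4G27657, which both fell. The guard cell markers showed no gap like that of CaS and STOMAGEN. FMA, the factor of guard cell fate, read 230 in the DRB3 overexpressor, 217 in the DRB2 overexpressor and 150 in wild type. AT1G22690 read 2249 in the DRB3 overexpressor, 2432 in the DRB2 overexpressor and 2417 in wild type.

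Nuclear genes of photosynthesis leaned the same way with small ratios. Of 7 measured photosystem and light-harvesting genes none passed 2-fold and 6 had a ratio below 0, with a median log2 ratio of -0.21 that was -0.10 after quantile normalization. LHCB4.1, a minor antenna protein of photosystem II, had the lowest ratio, with 19469 in the DRB3 overexpressor, 25474 in the DRB2 overexpressor and 22264 in wild type. Of 9 measured genes of carbon fixation and chlorophyll synthesis none passed 2-fold, and 7 of the 8 above the floor had a ratio below 0, with a median of -0.35. PRK, which regenerates the acceptor of carbon dioxide, read 9361 in the DRB3 overexpressor, 13844 in the DRB2 overexpressor and 18393 in wild type. HEMA2, for an early step of chlorophyll synthesis, read 163 in the DRB3 overexpressor, 289 in the DRB2 overexpressor and 282 in wild type. RCA, the leaf marker given above, is a member with a log2 ratio of -0.46, and the part of leaf share in these lists was not tested. The exception was PORB, a late enzyme of chlorophyll synthesis, with 4170 in the DRB3 overexpressor, 3690 in the DRB2 overexpressor and 3404 in wild type.

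Most genes of the plastid genome, though not most of the strongest, leaned the opposite way, with single genes far out on both sides. The plastid genome encodes core subunits of the photosynthetic complexes and part of the machinery that expresses them. Of 69 measured genes psbK rose, psbA fell and 46 of the 65 above the floor had a ratio above 0, with a median log2 ratio of 0.26. Over all 7662 probe sets above the floor, 3662 had a ratio above 0. Of the most intense plastid genes, atpE, atpB, ndhI and psaB had log2 ratios of -0.27, -0.05, -0.18 and -0.23, and psbM had 0.10. In median both overexpressors lay below wild type, with log2 ratios of -0.23 for the DRB3 and -0.33 for the DRB2 overexpressor over wild type. psbA, for the D1 core protein of photosystem II, read 3675 in the DRB3 overexpressor, 9509 in the DRB2 overexpressor and 9114 in wild type, 2.59-fold lower. psbK, for a small subunit of the same complex, read 4553 in the DRB3 overexpressor, 1846 in the DRB2 overexpressor and 2926 in wild type, 2.47-fold higher. Ribosomal protein genes had 13 of 14 ratios above 0 and a median of 0.32, rps2 leading with 1887 in the DRB3 overexpressor, 1004 in the DRB2 overexpressor and 2079 in wild type. Photosystem I genes had a median of -0.22 over 5 genes, psaC being lowest with 445 in the DRB3 overexpressor, 802 in the DRB2 overexpressor and 856 in wild type. rbcL, for the large subunit of rubisco, read 3357 in the DRB3 overexpressor, 5036 in the DRB2 overexpressor and 6342 in wild type, a log2 ratio of -0.59. The ribosomal RNA and spike-in controls given above differed in the same direction, with the DRB2 overexpressor the low array, and their part in the plastid values was not tested.

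**Figure D3:**
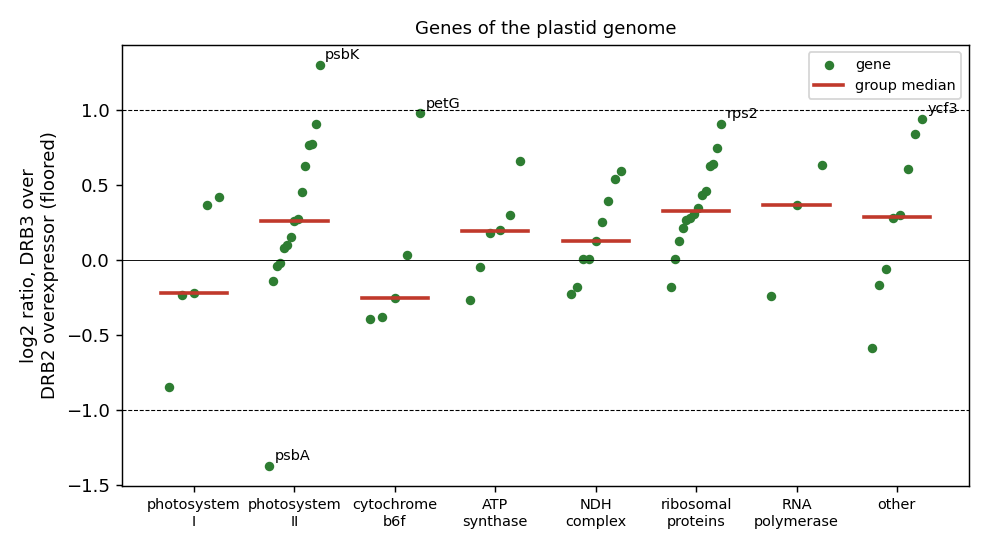
Log2 ratio of the DRB3 over the DRB2 overexpressor for the 65 plastid-encoded genes above the floor on an overexpressor array, by the complex they encode; each point is a gene, red bars are group medians and dashed lines mark 2-fold. psbA lies at -1.37 and psbK at 1.30 within photosystem II, while 13 of 14 ribosomal protein genes lie above 0.

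Stress regulators and cell wall genes account for further named falls. STZ, a zinc finger repressor also called ZAT10 that is induced quickly by stress, read 271 in the DRB3 overexpressor, 743 in the DRB2 overexpressor and 1417 in wild type, 2.74-fold lower. It was the 1 that fell among 9 measured zinc finger and calmodulin-like stress genes, and CML23 had the highest ratio there, with 202 in the DRB3 overexpressor and 116 in the DRB2 overexpressor. Among transcription factors, WRKY22 read 175 in the DRB3 overexpressor, 329 in the DRB2 overexpressor and 159 in wild type, so that the DRB2 overexpressor stood alone. None of the 7 WRKY and 7 bHLH genes matched by name or synonym passed 2-fold, with medians of -0.18 and -0.21 over the 6 and 7 above the floor. Both lists can miss members known by a locus code alone. HIS1-3, a linker histone induced by drought, read 112 in the DRB3 overexpressor, 281 in the DRB2 overexpressor and 203 in wild type, a log2 ratio of -1.32, while the core histone genes above the floor had log2 ratios between -0.15 and 0.24. The ubiquitin ligase gene PUB26 read 210 in the DRB3 overexpressor, 429 in the DRB2 overexpressor and 441 in wild type, 2.04-fold lower. Its close relative PUB25 read 222 in the DRB3 overexpressor, 372 in the DRB2 overexpressor and 301 in wild type. PUB22, PUB23 and PUB24 also had ratios below 0, with log2 values of -0.21, -0.58 and -0.04. PUB22 was above the floor in the DRB2 overexpressor only, which fixes the direction of its floored ratio. PUB43 and PUB49 had log2 ratios of 0.30 and 0.33.

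Expansins loosen the cell wall as cells grow. EXLB1, an expansin-like gene, read 164 in the DRB3 overexpressor, 440 in the DRB2 overexpressor and 482 in wild type, 2.68-fold lower. EXPA8 read 364 in the DRB3 overexpressor, 764 in the DRB2 overexpressor and 571 in wild type, 2.10-fold lower. These 2 fell among 19 measured expansin genes and none rose. EXPB3 and EXPA15 followed with log2 ratios of -0.83 and -0.50, whereas the root hair expansin EXPA18 had the highest ratio, 0.66. Xyloglucan endotransglucosylases, which cut and rejoin wall polymers, had none past 2-fold among 10 measured. Of the 7 above the floor, 6 had a ratio above 0, but that of XTH19 was 0.00, with 554 on both overexpressor arrays, and XTH18 was highest with 571 in the DRB3 overexpressor, 371 in the DRB2 overexpressor and 196 in wild type. One of the 7, XTH33, was above the floor in the DRB3 overexpressor only. XTH32 had the only ratio below 0, reading 598 in the DRB3 overexpressor, 906 in the DRB2 overexpressor and 828 in wild type. The XTH median of 0.37 was 0.00 with the floor at percentile 60.

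Genes of the sucrose and starch list, which includes SWEET sugar transporters, mostly had ratios below 0, while the beta-glucosidases were mixed. ATSPS4F, a sucrose-phosphate synthase of leaf sucrose synthesis, read 619 in the DRB3 overexpressor, 1532 in the DRB2 overexpressor and 4173 in wild type, 2.47-fold lower. SWEET11, a sucrose exporter of the phloem, read 2308 in the DRB3 overexpressor, 3577 in the DRB2 overexpressor and 4044 in wild type. The SWEET family, a part of this list, had 7 genes above the floor, 6 of them with a ratio below 0, and a median log2 ratio of -0.28. Among these 6, SWEET13 was above the floor in the DRB2 overexpressor only, which fixes the direction of its floored ratio. Among 21 measured genes of sucrose and starch metabolism ATSPS4F alone fell and none rose, and 7 of the 9 above the floor on both overexpressor arrays had a ratio below 0. The median over the 10 above it on at least 1 array was -0.28, which was -0.03 with the floor at percentile 60. Of 22 measured beta-glucosidase genes BGLU33 (2.33-fold) and BGLU28 (2.04-fold) fell and none rose. BGLU28 read 184 in the DRB3 overexpressor, 376 in the DRB2 overexpressor and 217 in wild type, so the DRB2 overexpressor was the high array. BGLU40 lay just short of 2-fold with 519 in the DRB3 overexpressor, 1028 in the DRB2 overexpressor and 965 in wild type, and BGLU16 had the highest ratio of the family with 1561 in the DRB3 overexpressor, 978 in the DRB2 overexpressor and 783 in wild type. PYK10, the main beta-glucosidase of root endoplasmic reticulum bodies, read 21891 in the DRB3 overexpressor, 21376 in the DRB2 overexpressor and 19349 in wild type.

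The remaining named falls were those of GAT1_2.1, a glutamine amidotransferase gene, of ZCF37, of DLAH, for an acylhydrolase of the DAD1-like family, and of At1g78690p. GAT1_2.1 read 119 in the DRB3 overexpressor, 274 in the DRB2 overexpressor and 295 in wild type, and its other probe set lay under the floor on all arrays. DLAH read 102 in the DRB3 overexpressor, 221 in the DRB2 overexpressor and 58.1 in wild type, at least 2.04-fold lower. ZCF37 read 137 in the DRB3 overexpressor, 309 in the DRB2 overexpressor and 180 in wild type, and At1g78690p read 151 in the DRB3 overexpressor, 305 in the DRB2 overexpressor and 228 in wild type. In these last 3 genes the DRB2 overexpressor was the highest array.

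The steepest falls belonged to genes that the tables know by a locus code. AT5G48490 read 931 in the DRB3 overexpressor, 5004 in the DRB2 overexpressor and 2496 in wild type, 5.38-fold lower, so that the overexpressors lay on opposite sides of wild type. AT3G63340 read 126 in the DRB3 overexpressor, 626 in the DRB2 overexpressor and 432 in wild type, 4.99-fold lower. AT4G02850 read 166 in the DRB3 overexpressor, 527 in the DRB2 overexpressor and 314 in wild type, and AT3G16670 read 170 in the DRB3 overexpressor, 504 in the DRB2 overexpressor and 257 in wild type; both again had wild type in between. AT4G27280 read 2023 in the DRB3 overexpressor, 6086 in the DRB2 overexpressor and 5987 in wild type, and AT3G04640 read 299 in the DRB3 overexpressor, 878 in the DRB2 overexpressor and 840 in wild type. In these genes and in AT3G07350, with 589 in the DRB3 overexpressor, 1672 in the DRB2 overexpressor and 1598 in wild type, the DRB2 overexpressor was close to wild type. AT5G20790 read 327 in the DRB3 overexpressor, 967 in the DRB2 overexpressor and 3452 in wild type, and AT1G08310, AT4G29780 and AT1G60590 also kept the order wild type, DRB2 overexpressor, DRB3 overexpressor from high to low. AT2G04460, AT3G28220, AT5G22390 and AT4G15680 fell between 2.59-fold and 2.70-fold. Of genes that fell to under the floor, AT4G01460 was at least 2.48-fold lower, AT2G30540 at least 2.14-fold, AT5G06270 at least 2.11-fold, AT3G55710 at least 2.08-fold, AT1G22160 at least 2.06-fold and AT4G27657 at least 2.04-fold.

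Autophagy, the recycling of cell contents in vacuoles, was among the lists with ratios mostly on 1 side. ATG8 proteins coat the growing autophagosome membrane and ATG3 attaches them to lipid. None of the 11 measured genes passed 2-fold, 9 had a ratio above 0 and the median log2 ratio was 0.54. Apart from ATG3 and AT5G66930, all 11 are ATG8 genes, some of them named APG8, so the list speaks mainly for that family. Autophagy genes known by a locus code alone can be missing from it. APG8A came closest with 1375 in the DRB3 overexpressor, 692 in the DRB2 overexpressor and 652 in wild type, a log2 ratio of 0.99. ATG8E read 1577 in the DRB3 overexpressor, 916 in the DRB2 overexpressor and 836 in wild type, and ATG8H read 667 in the DRB3 overexpressor, 408 in the DRB2 overexpressor and 275 in wild type. ATG8F and ATG8G went slightly the other way, with log2 ratios of -0.04 and -0.24. AT5G66930 (ATG101), of the complex that starts autophagy, read 420 in the DRB3 overexpressor, 293 in the DRB2 overexpressor and 210 in wild type. Genes of the ESCRT complexes and vacuolar sorting, which deliver membrane proteins to the vacuole, had 12 of 14 ratios above 0 and none past 2-fold, with a median of 0.28. VPS20.1 was highest with 538 in the DRB3 overexpressor, 335 in the DRB2 overexpressor and 275 in wild type, and VPS9B lowest with 168 in the DRB3 overexpressor, 237 in the DRB2 overexpressor and 158 in wild type.

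**Figure D4:**
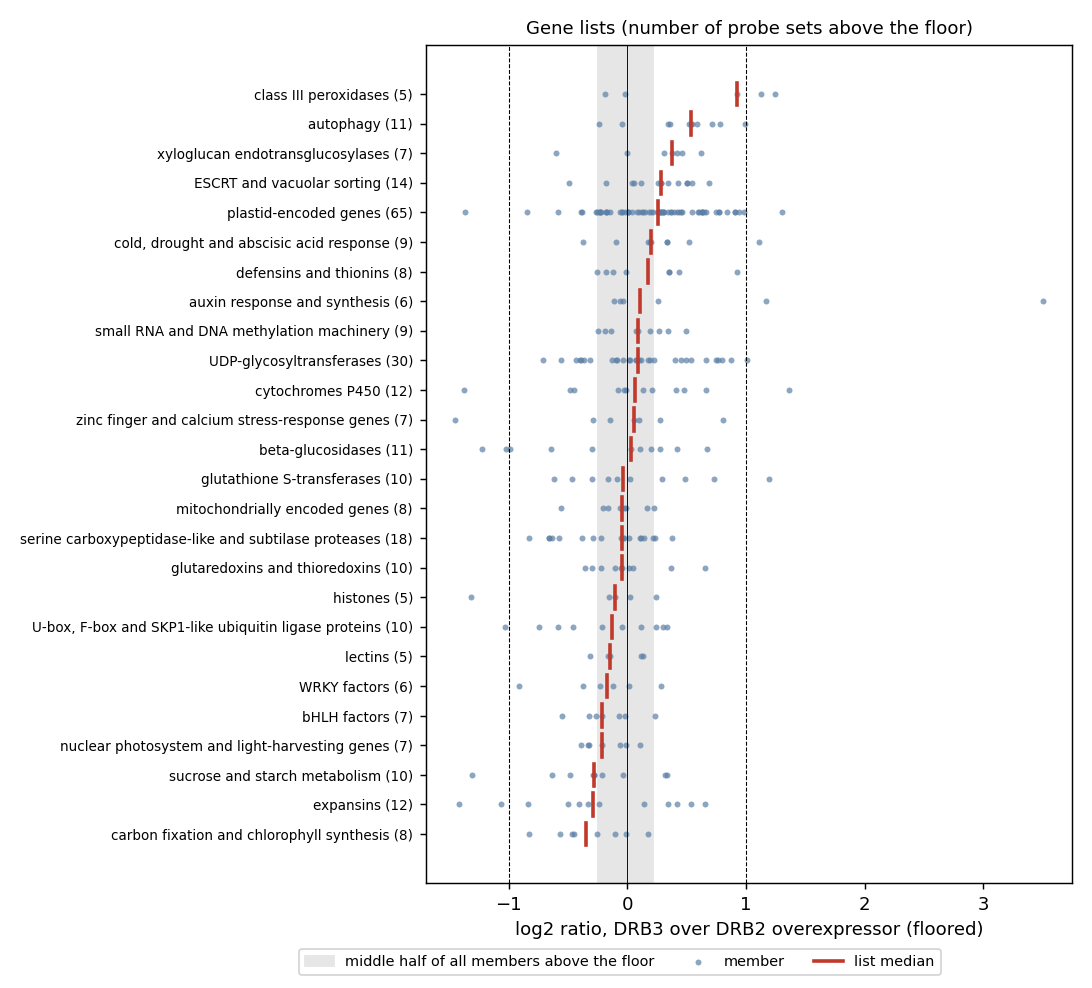
Log2 ratio of the DRB3 over the DRB2 overexpressor for the members of the 26 lists with at least 5 probe sets above the floor on an overexpressor array; points are members, red bars list medians, dashed lines 2-fold, and the grey band, from -0.25 to 0.22, is the interquartile range of all such probe sets. The medians of the peroxidase, autophagy, xyloglucan endotransglucosylase, ESCRT and plastid lists lie right of the band, and those of the carbon fixation, expansin and sucrose lists left of it.

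Genes of the small RNA pathways, in which DRB proteins act, showed no member past 2-fold. Of 13 measured probe sets for small RNA and DNA methylation proteins, which include RNA polymerase subunits shared with other polymerases, 9 were above the floor, with a median of 0.09. NRPE7, for a subunit of polymerase V, had the highest ratio, with 255 in the DRB3 overexpressor, 181 in the DRB2 overexpressor and 183 in wild type. SE, a partner of HYL1 in microRNA processing, read 263 in the DRB3 overexpressor, 219 in the DRB2 overexpressor and 241 in wild type, and AGO7, the Argonaute of trans-acting siRNA formation, read 123 in the DRB3 overexpressor, 117 in the DRB2 overexpressor and 106 in wild type. Of 5 measured microRNA targets none passed 2-fold, and 3 were above the floor. APS4, a target of miR395, read alike, with 1922 in the DRB3 overexpressor and 1923 in the DRB2 overexpressor, against 1037 in wild type. PHV and CCS, targets of miR166 and miR398, had log2 ratios of -0.02 and 0.11.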

How the data were processed

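The authors deposited 1 table of MAS5 intensities on a linear scale, and the submitters' processing notes name MAS5 without a version; detection calls were not used here. RNA (10 ug) had been labelled as biotinylated cRNA, per the labels' protocols. Of 22810 probe sets, 64 controls, 8730 unlisted and 503 with several genes were left out, and 13436 of the 13513 kept were matched to RefSeq names (assembly TAIR10.1). The floor is the mean over the 3 arrays of percentile 40. Ratios were then taken as log2. No test was possible with 1 sample per group. Named genes are the 20 largest rises and falls above the floor, 8 bounds each way, list members past 2-fold and otherwise up to 4 with the largest ratios; other genes given as contrast, and all called genes with a name, were added after values were seen. The 53 lists, matched by name, had 8 without members, 26 with at least 5 above the floor and 19 others, and 1 more is not reported here; 47 false matches by letters, clone name or gene family were removed after values were seen. Members and lists were chosen with earlier results of these data known. Other floors, a pseudocount, centring, quantile normalization, loess, other choices of probe set and other fold thresholds were tried as alternatives. Steps were tested on simulated data. Python 3.11.15, numpy 2.4.6, pandas 2.3.3, statsmodels 0.14.6 and matplotlib 3.10.9 were used.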

Additional observations from a re-analysis of the deposited data

Results flagged for a closer look

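Outside the probe sets compared, 9233 non-control probe sets have no single gene in the gene table. Between the DRB3 and the DRB2 overexpressor, 67 of these (0.726%) passed 2-fold upward and 96 (1.04%) downward. In the DRB3 overexpressor, 45 of them gave a signal at least 2-fold above both the DRB2 overexpressor and the wild-type array, and they are singled out because they lie outside the main comparison.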

How the results depend on the processing

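The number of probe sets past 2-fold rested on how weak signals were treated. Against 77 higher and 82 lower, a floor at percentile 20 gave 165 and 406, one at percentile 60 gave 32 and 30, and a pseudocount of 16 with no floor gave 263 and 617. The higher share of all calls, 48.4%, was 28.9% with the floor at percentile 20 and 29.9% with the pseudocount. At 1.5-fold there were 393 higher and 510 lower, and at 3-fold 13 and 8. Median centring, quantile normalization, loess, 1 probe set per gene and single-transcript probe sets each gave between 75 and 84 higher and between 73 and 82 lower. Of 76 named probe sets, 33 stayed past 2-fold with the floor at percentile 60, 70 after loess, 72 after quantile normalization and 72 with the pseudocount, and none changed direction under any alternative. List medians turned sign for defensins and thionins (-0.0086 on single-transcript probe sets) and for auxin genes (-0.0185 with the floor at percentile 60), and some became 0 with the floor at percentile 60, among them those of expansins, WRKY and bHLH factors. The cause was not tested. No paired analysis was possible because each group has 1 sample.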

Other observations

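Of the genes matched to the other lists reported here, none passed 2-fold between the overexpressors. These lists too can miss family members known by a locus code alone. Cell division genes had 4 of 7 measured members above the floor, all with a ratio below 0 and a median log2 ratio of -0.35. AUR2, an Aurora kinase of mitosis, read 172 in the DRB3 overexpressor, 318 in the DRB2 overexpressor and 170 in wild type, so that the DRB2 overexpressor was the high array. The gibberellin receptor genes GID1A and GID1B had log2 ratios of 0.28 and 0.26, and GID1A read 592 in the DRB3 overexpressor, 486 in the DRB2 overexpressor and 418 in wild type.

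The 18 serine carboxypeptidase-like and subtilase genes above the floor had a median of -0.05, or -0.13 over the 16 above it on both overexpressor arrays, with scpl20 lowest, reading 187 in the DRB3 overexpressor, 333 in the DRB2 overexpressor and 535 in wild type. Mitochondrially encoded genes had a median of -0.04 over 8 probe sets, while the 4 that no overexpressor array put under the floor had one of 0.07. Glutaredoxins and thioredoxins had a median of -0.05 over 10, and lectins -0.14 over 5. GRXC1, a glutaredoxin, had the highest ratio of its list, with 965 in the DRB3 overexpressor, 612 in the DRB2 overexpressor and 808 in wild type. SAG101, a partner of EDS1 in immunity, read 202 in the DRB3 overexpressor, 125 in the DRB2 overexpressor and 108 in wild type, a log2 ratio of 0.69.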
